A study of Mus musculus with 4 samples.

Results

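T cells of the mouse dorsal root ganglion (DRG) are described here in 10x single-cell RNA-seq, a droplet method that counts RNA molecules by their unique molecular identifiers (UMIs), with 1 barcode for 1 cell. A barcode was taken as a T cell when it passed the limits on cells (UMIs from 600 to 15000, genes from 500 to 4000, mitochondrial share below 10%), held at least 2 UMIs of *Cd3d*, *Cd3e* and *Cd3g* together, at most 1 UMI of the B cell gene *Cd79a* and at most 4 UMIs of the macrophage genes *C1qa*, *C1qb* and *C1qc*. In all, 66 of 6095 filtered barcodes met this rule (1.08%), from 6975 deposited. The study dissociated whole DRG of C57BL/6 mice aged 8 to 12 weeks (females, by the methods) with papain and collagenase and sorted live cells. There were 2 libraries of naïve, uninjured ganglia (control) and 2 of ganglia 3 days after sciatic nerve crush (injury). These groups were read from the sample titles, because the treatment entry of the labels names the crush for all 4 libraries, those titled uninjured included. The first library of each condition carries no number in the labels and is called replicate 1 here. The sample labels name L4 ganglia, whereas the methods name L4 and L5. The study pooled cells of several mice in each batch. The sources used here do not say whether blood was flushed out of the ganglia first, so T cells of vessels and of tissue cannot be told apart. In total 5585909 UMIs were counted in control replicate 1, 11210875 in control replicate 2, 11163177 in injury replicate 1 and 9477167 in injury replicate 2.

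Most T cells recognise peptides on MHC molecules through a T cell receptor made of alpha and beta chains. In a smaller lineage the receptor is made of gamma and delta chains instead. The receptor chains do not signal by themselves. They are carried to the surface and coupled to the kinases Lck and Zap70 by the CD3 proteins and the zeta chain encoded by *Cd247*, and the coreceptors CD4 and CD8 mark helper and cytotoxic lineages. In peripheral nerve and ganglia, T cells are a sparse population beside the abundant resident macrophages.

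The 3 genes of the rule lie side by side on chromosome 9 in GRCm38, the assembly behind mm10, with *Cd3g* at chr9:44969572-44980431 on the minus strand, *Cd3d* at chr9:44981786-44987339 on the plus strand and *Cd3e* at chr9:44998740-45009627 on the minus strand. As the rule used them, their values are a description. *Cd3g* was found in 61 of the 66 barcodes, *Cd3d* in 56 and *Cd3e* in 38. The median T cell held 8 CD3 UMIs and the highest held 23.

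The label held when checked against 10 T cell markers that the rule did not use. All 10 were detected, with 1148 UMIs in total. The constant regions of the receptor beta chain, *Trbc1* (chr6:41538218-41539881) and *Trbc2* (chr6:41546730-41548352), had at least 1 UMI in 62 of 66 barcodes (93.9%, exact 95% interval 85.2 to 98.3). The threshold of 2 UMIs fell at a visible step. None of the 13 barcodes with 1 CD3 UMI held a beta chain UMI (a count of 0 leaves room for 23.1%). Of the 6 barcodes with 2 CD3 UMIs 3 held one, of the 8 with 3 all 8 did, and of the 52 with 4 or more 51 did. Among 4912 barcodes with no CD3 UMI and within the other limits, 17 held a beta chain UMI. The limit on *Cd79a* left out 1 further CD3 barcode and the limit on C1q genes left out 2. Intervals and limits of this kind cover counting error only.

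The T cells were very unevenly spread over the libraries. Control replicate 1 held 55 of them, control replicate 2 held 4, injury replicate 1 held 6 and injury replicate 2 held 1, so that 83.3% of all T cells came from 1 library. As shares of the filtered barcodes these were 4.23% in control replicate 1 (exact 95% interval 3.20 to 5.47), 0.298% in control replicate 2 (0.0813 to 0.762), 0.252% in injury replicate 1 (0.0927 to 0.549) and 0.0929% in injury replicate 2 (0.00235 to 0.517). The interval of control replicate 1 lay apart from the others, whose intervals overlapped. The same library was the shallowest in total UMIs, and its median T cell had 2488 UMIs, beside 3672 in control replicate 2 and 2494.5 in injury replicate 1.

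**Figure D1:**
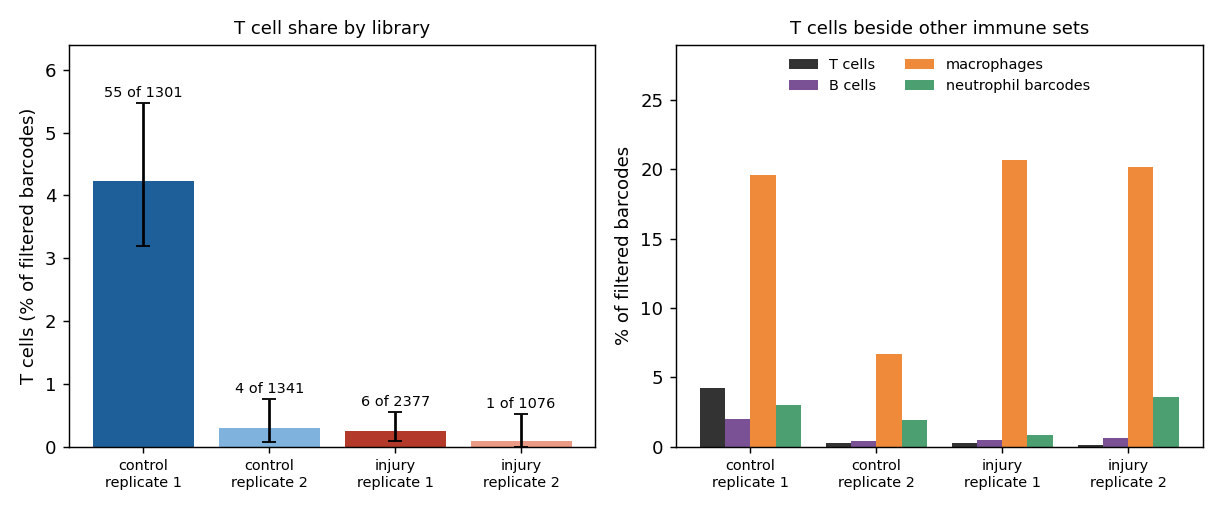
Left, T cells as a percent of the filtered barcodes of each library (bars), with exact 95% intervals and the counts above them. Right, T cells beside B cells, macrophages and neutrophil barcodes as percents of the same barcodes. T cells reached 4.23% in control replicate 1 and at most 0.298% in the other libraries.

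On average T cells made up 2.26% ± 2.78 (SD, n = 2 libraries) of the control barcodes and 0.173% ± 0.113 (SD, n = 2) of the injury barcodes. The injury mean minus the control mean, -2.09 percentage points, was smaller in size than the SD of the control libraries (two-sided exact permutation test, p = 0.333, which is as low as this design of 2 and 2 can go). Between the libraries numbered 1 the difference was -3.98 points, and between those numbered 2 the difference was -0.205 points. Under the main rule both injury libraries thus lay below both control libraries, but control replicate 2 lay within the interval of injury replicate 1. Under other rules injury replicate 1 lay above control replicate 2. With at least 3 CD3 UMIs the shares were 0.252% and 0.224%, and without the barcodes of mixed transcripts described below 0.252% and 0.149%. With no limits on barcodes they were 0.239% and 0.224%, and with limits on UMIs and genes only 0.245% and 0.243%. The other immune sets are given for scale. B cells, taken as barcodes with at least 2 UMIs of *Cd79a* and *Cd79b*, made up 2.00% of control replicate 1, 0.447% of control replicate 2, 0.463% of injury replicate 1 and 0.651% of injury replicate 2, with control replicate 1 again the highest. Macrophages, taken as barcodes with at least 5 C1q UMIs, made up 19.6%, 6.71%, 20.7% and 20.2% in the same order. There were 21.6 T cells per 100 macrophages in control replicate 1, 4.44 in control replicate 2, 1.22 in injury replicate 1 and 0.461 in injury replicate 2. Barcodes with at least 10 UMIs of 7 neutrophil genes made up 3.00% of control replicate 1, 1.94% of control replicate 2, 0.883% of injury replicate 1 and 3.62% of injury replicate 2, and barcodes of erythroid genes were absent from control replicate 1 and made up 0.895%, 0.505% and 2.88% of the others. The part of library depth or of blood cells in the spread of T cells was not tested.

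Of the 66 T cell barcodes, 5 also held at least 10 UMIs of another cell type's genes. In control replicate 1 a barcode with 2026 neutrophil UMIs and another with 913 each had 2 CD3 UMIs and no beta chain UMI. In control replicate 2, 2 of the 4 T cells held 162 and 318 UMIs of MHC class II genes, and both had beta chain UMIs (2 and 4). The single T cell of injury replicate 2 had 5 CD3 and 5 beta chain UMIs together with 197 UMIs of the fibroblast genes *Dcn*, *Lum*, *Col3a1* and *Col1a1*. The doublet caller Scrublet marked 37 barcodes and none of the T cells. Barcode sequences shared between libraries numbered 20, and none was a T cell. Without the 5 barcodes, 53, 2, 6 and 0 T cells remained. Neutrophil genes, led by *S100a8*, summed to 2981 UMIs in the 66 barcodes and 41 in the other 61. Of 8 B cell markers 5 were detected, with 39 UMIs in all. *Ighm*, the most abundant, had 31 UMIs in 18 cells (27.3%). Without the 5 barcodes 24.6% of T cells held it, beside 96% of B cells and 45.8% of macrophages. *Ms4a1* and *Vpreb3* were at 0. Of 5 markers of satellite glia 3 were detected, with 104 UMIs in all (76, 9, 11 and 8 over the libraries in order). Of these 99 were *Apoe*, which macrophages also express, and *Kcnj10* and *Cdh19* were at 0.

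**Figure D2:**
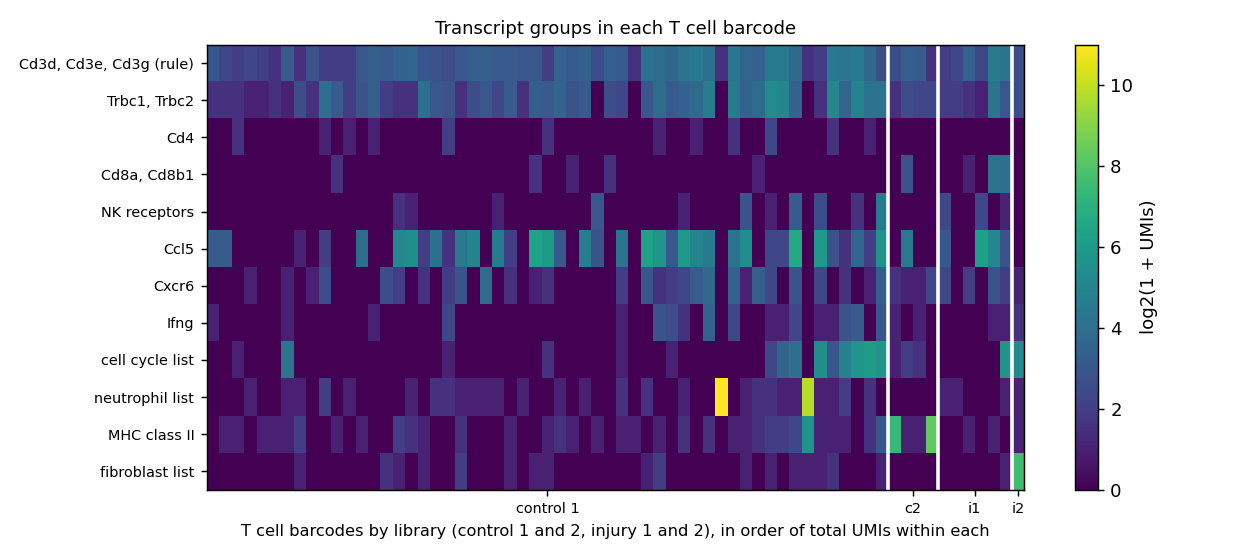
Each column is 1 of the 66 T cell barcodes, grouped by library and ordered by total UMIs within it, and each row is a gene or gene group, coloured by log2(1 + UMIs). Beta chain transcripts run through 62 columns, CD4 and CD8 transcripts do not share a column, and the bright neutrophil, MHC class II and fibroblast cells mark the 5 barcodes described in the text.

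The receptor and its signalling machinery were found in all libraries. *Trbc2* reached 1972 CPM (UMIs of the summed T cells scaled to a common total) in control replicate 1, 687 in control replicate 2, 1275 in injury replicate 1 and 859 in injury replicate 2. The highest value was in the library with most T cells, and the injury values lay between those of the control libraries. How reads were divided between *Trbc1* and *Trbc2* is uncertain because the genes are nearly identical, so their sum is the safer value. *Trac*, the alpha chain constant region, was found in only 7 cells, each with 1 UMI. *Cd247*, the zeta chain, was found in 29 cells with 56 UMIs. Its levels were 261 CPM in control replicate 1, 331 in injury replicate 1 and 172 in injury replicate 2, and it was at 0 in control replicate 2, whose 17476 T cell UMIs could not show a gene below the worth of a few UMIs.

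The list of 22 genes of receptor signalling and costimulation, which overlaps the 10 markers, was detected in full in T cells, led by *Thy1* with 148 UMIs. *Lck*, the kinase that acts first at the receptor, was in 52 cells (78.8%), at 577 CPM in control replicate 1, 401 in control replicate 2, 472 in injury replicate 1 and 344 in injury replicate 2. *Lat*, the scaffold that the kinases phosphorylate, was in 43 cells, with 528, 286, 567 and 344 CPM in this order. Both genes lay within a similar range in every library. *Cd28*, the main costimulatory receptor, was in 35 cells and *Icos*, a related receptor, in 31. To set detection beside other cells at equal depth, each cell was thinned to 1000 UMIs, which all 66 T cells had (2 B cells, 1 macrophage and 1 satellite glia barcode were too shallow), since median depth differed (2576 UMIs in T cells, 2322 in B cells, 4119.5 in macrophages and 3869 in barcodes with at least 3 UMIs of the satellite glia gene *Fabp7*). *Lck* was then detected in 45.1% of T cells, 0.637% of B cells, 0.0300% of macrophages and 0.0912% of satellite glia. *Cd2*, an adhesion receptor, was in 41.7% of T cells and 20.5% of B cells. Free RNA gives all cells a low share, and for *Trbc2* that share was 0% in B cells and macrophages and 0.0294% in satellite glia, against 72.5% in T cells.

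**Figure D3:**
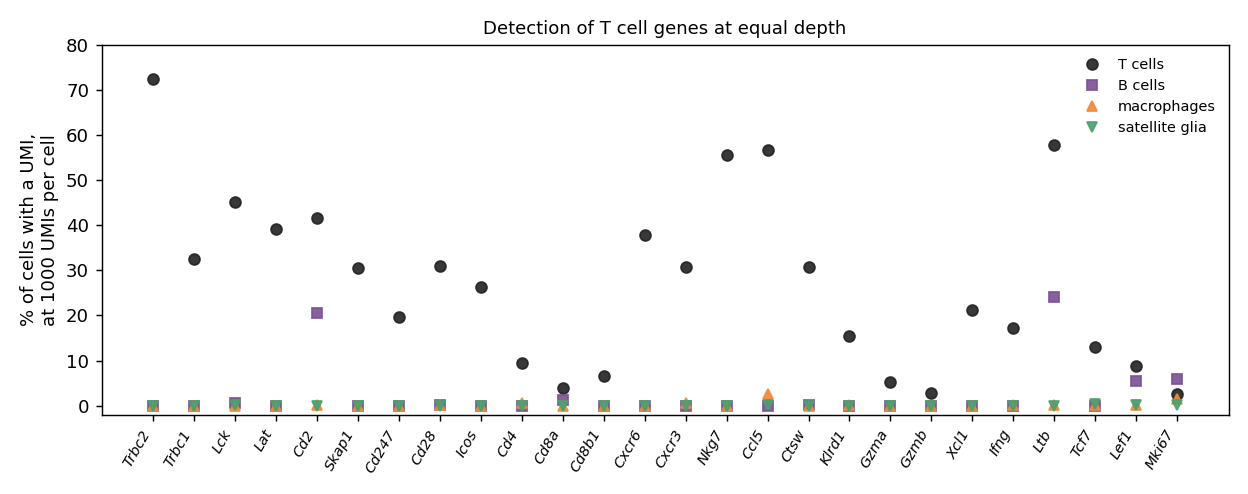
Percent of cells with at least 1 UMI of each gene after thinning every cell to 1000 UMIs, in T cells, B cells, macrophages and satellite glia (all libraries pooled, a description). Most T cell genes sit near 0 in the other sets, while *Cd2*, *Ltb* and *Lef1* are shared with B cells. *Mki67* is found in every set, and no order is read from it, as the sets mix the libraries differently.

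Coreceptor transcripts were found in a minority of the T cells, and no cell held both kinds. With so few carriers of each, little overlap would be seen even if they were detected independently, so no split is read from this. *Cd4* without CD8 was found in 12 cells (18.2%, exact 95% interval 9.76 to 29.6), *Cd8a* or *Cd8b1* without *Cd4* in 9 (13.6%, 6.43 to 24.3), both in none (a count of 0 of 66 allows up to 4.55%) and neither in 45. All 12 cells with *Cd4* came from control replicate 1, and 0 of the 11 T cells of the other libraries had it, which allows up to 27.3%. The cells with CD8 came from control replicate 1 (5), control replicate 2 (1) and injury replicate 1 (3). *Cd8b1* was at 32.7 CPM in control replicate 1, 286 in control replicate 2, 1086 in injury replicate 1 and 0 in injury replicate 2. The injury replicate 1 value rested on 23 UMIs in 2 cells. With counts this low most T cells cannot be placed, since a cell that expresses *Cd4* at the median of 1.5 UMIs seen in its carriers can easily show none. At 1000 UMIs per cell *Cd4* was in 9.39% of T cells and 0.664% of macrophages.

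What else the *Cd4* and CD8 cells held is given as counts, with no test, and the *Cd4* cells are all from control replicate 1 while the CD8 cells are from 3 libraries. *Cd28* was in 11 of 12 *Cd4* cells and 4 of 9 CD8 cells. *Klrd1*, an NK-type receptor subunit, was in 0 of 12 and 4 of 9. *Ifng* was in 6 of 12 and 2 of 9, and *Cxcr6* in 8 of 12 and 6 of 9.

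Transcripts of memory, effector and tissue residence were frequent. *Cxcr6*, the receptor for the chemokine CXCL16 and a gene of tissue memory T cells (chr9:123806475-123811760), was in 38 of 66 T cells (57.6%, 44.8 to 69.7). It was in 29 of 55 cells of control replicate 1, 4 of 4 of control replicate 2, 4 of 6 of injury replicate 1 and 1 of 1 of injury replicate 2, at 719, 458, 756 and 172 CPM. It thus appeared in every library and, thinned to 1000 UMIs, in 37.8% of T cells and in no B cell, macrophage or satellite glia barcode. *Cxcr3*, a receptor of interferon-induced chemokines, was in 36 cells and in 30.8% after thinning, against 0.654% of macrophages. *Rgs1*, a regulator of chemokine receptor signalling, was in 47 cells, at 1531 CPM in control replicate 1 but 172 in control replicate 2, 472 in injury replicate 1 and 344 in injury replicate 2. *Ly6c2* was in 24 cells and *Id2*, a transcriptional regulator of effector cells, in 45. By contrast *Itgae*, *Itga1* and *Prdm1*, which are used as residence markers in epithelia, were in 3, 5 and 3 cells, and *Zfp683* was in none. Of the 11 genes for naive and recirculating T cells, *Klf2* had 130 UMIs in 31 cells, *Tcf7* was in 20, *Lef1* in 16 and *Ccr7* in 8.

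The cytotoxic list was led by *Ccl5*, a chemokine that memory and cytotoxic T cells secrete (chr11:83525778-83530518). It had 1103 UMIs in 42 of 66 cells, with a median of 17.5 UMIs in its carriers and 106 in the highest. It was at 5245 CPM in control replicate 1, 1202 in control replicate 2, 5619 in injury replicate 1 and 0 in injury replicate 2. Control replicate 2 had a single carrier among 4 cells, and the single cell of injury replicate 2 was the one with fibroblast transcripts. *Nkg7*, a protein of cytotoxic granules, was in 46 cells, at 1291 and 744 CPM in control and 2692 and 2749 after injury, and *Ctsw*, a protease of cytotoxic cells, was in 38. The killing proteins themselves were scarce: *Gzma* was in 5 cells with 43 UMIs, *Gzmb* in 4, *Gzmk* in 8 and *Prf1* in 2. All 5 *Gzma* cells and all 4 *Gzmb* cells were in control replicate 1. Of the transcription factors of these cells, *Tbx21* was in 10 and *Eomes* in none.

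Among 19 cytokine and chemokine genes 15 were detected. *Ltb*, a subunit of the lymphotoxin that organises lymphoid tissue, was in 54 cells, with 1187 and 286 CPM in the control T cells and 567 and 172 CPM in the injury T cells. *Ifng*, the signature cytokine of type 1 immunity (chr10:118441046-118445892), was in 23 cells (34.8%, 23.5 to 47.6), at 349 and 114 CPM in control and 94.4 and 344 after injury. The injury values lay on both sides of control replicate 2, and each rested on 2 UMIs. *Xcl1*, which attracts cross-presenting dendritic cells, was in 22 cells at 566, 572, 661 and 0 CPM. *Tgfb1*, which many cell types express, was in 24 cells of all 4 libraries with 36 UMIs. Of the other cytokines *Cd40lg* was in 13 cells, *Il2* in 6, *Tnf* in 6, *Il4* in 3 and *Il21* and *Csf2* in 1 each, and *Il5*, *Il13*, *Il22* and *Areg* were in none. After thinning, *Ifng* was in 17.3% of T cells, 0% of B cells and 0.0682% of macrophages. *Ccl4* and *Ccl3*, chemokines that macrophages also make, were in 13 and 5 T cells, and after thinning in 11.3% and 3.60% of T cells against 51.5% and 47.6% of macrophages.

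Of the 11 genes of the regulatory T cell list 8 were detected, with 134 UMIs in total. *Tnfrsf18*, which activated T cells also express, was in 28 cells, *Ikzf2* in 16, *Ctla4* in 9 and *Tnfrsf4* in 8. *Foxp3*, the transcription factor that defines the regulatory lineage, *Il10* and *Tigit* had no UMI in any T cell. This allows up to 4.55% of T cells with a UMI and sets no limit on the share that express these genes at a low level. Of genes of type 17 and gamma delta T cells, *Maf* was in 18 cells and *Rora* in 12. *Il17a* had 7 UMIs in 1 cell of control replicate 1, and *Il17f*, *Il23r* and *Ccr6* had none. Gamma chain constant regions (*Tcrg-C1*, *Tcrg-C4*) had 3 UMIs in 3 cells of control replicate 1, and all 3 also held beta chain UMIs. The delta chain gene *Trdc* was not used here, because the gene table analysed does not list it. Genes of developing thymocytes were also at 0 (*Rag1*, *Rag2*, *Ptcra*, *Dntt* and *Arpp21*), except *Themis* and *Cd1d1*, which mature cells express.

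Receptors of natural killer cells (*Ncr1*, *Klrb1c*, *Klre1* or *Klrb1f*) were found in 14 T cells, 11 of control replicate 1 and 3 of injury replicate 1, and 13 of the 14 also held beta chain UMIs. All 14 held *Ccl5*, with a median of 37.5 UMIs, and *Nkg7*, and 10 held *Klrd1*. Of all 66 T cells 42, 46 and 17 held these genes in this order. The 14 were deeper, with a median of 4204 UMIs against 2576 in all T cells, and the part of depth in this was not tested. *Cd4* was held by 1 of the 14 and CD8 by 1, beside 12 and 9 of all 66, and no difference is read from counts this small. The barcode with such a receptor and no beta chain UMI had 5 CD3 UMIs and 7 NK receptor UMIs. Of the 4 barcodes without a beta chain UMI, it was the only one with *Ccl5*. The other 3 each had 2 CD3 UMIs, and 2 of them were those with neutrophil transcripts.

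Cell cycle transcripts were concentrated in a few large barcodes. With a list of 12 genes, 10 of 66 T cells held at least 10 UMIs (15.2%, 7.51 to 26.1), 8 in control replicate 1, 1 in injury replicate 1 and 1 in injury replicate 2. These 10 held 11 to 66 such UMIs and the other 56 held 0 to 7. They were deeper, with a median of 7092.5 UMIs against 2415.5. In 9 of the 10 *Ifng* was also detected, and the part of their greater depth in this was not tested. *Mki67*, a marker of cycling cells, was in 6 cells, and in 2.67% of T cells after thinning against 5.97% of B cells, 1.45% of macrophages and 0.158% of satellite glia. By the same count of 10 UMIs, cycling barcodes made up 14.5% of T cells in control replicate 1, where they made up 3.85% of B cells and 0.392% of macrophages. In control replicate 2 they were 0 of 4 T cells, 66.7% of 6 B cells and 3.33% of macrophages. In injury replicate 1 the shares were 16.7% of 6 T cells, 27.3% of B cells and 8.94% of macrophages. In injury replicate 2 the single T cell was one, as were 71.4% of 7 B cells and 17.5% of macrophages. Depth differed between the sets within a library: in control replicate 1 the median was 2488 UMIs in T cells, 1581.5 in B cells and 2991 in macrophages, and in injury replicate 1 it was 2494.5, 3116 and 4726. As a fixed count of UMIs is reached more easily in a deeper cell, these shares are given side by side with no order read from them.

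**Figure D4:**
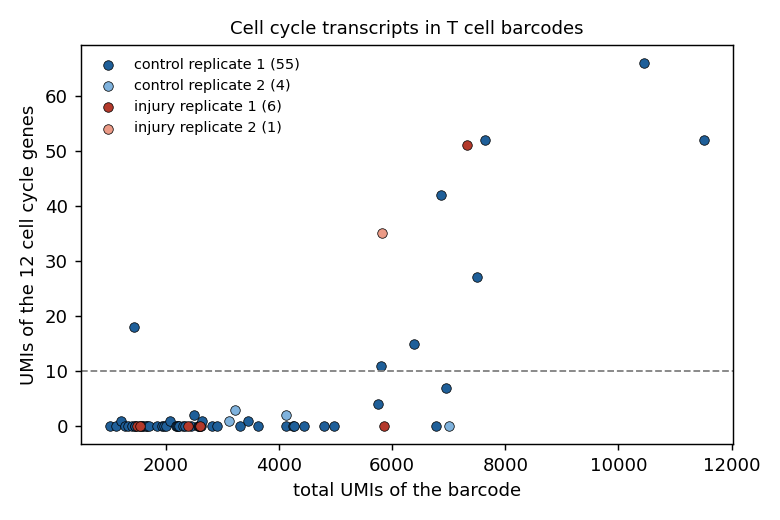
UMIs of the 12 cell cycle genes against total UMIs, 1 point per T cell, coloured by library, with the threshold of 10 as a dashed line. Of the 10 cells above the line 9 have at least 5805 UMIs, and the points between 0 and 7 span the whole range of depth up to 7012.

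Genes of broader lymphocyte and antigen presentation functions were also present. Small GTPases of the GIMAP family, which support lymphocyte survival, were all 8 detected, led by *Gimap4* in 53 cells. Of 7 genes of MHC class I presentation, *B2m* and *H2-D1* were in 65 cells and *H2-K1* in 63, while *Psmb8* was in 53, *H2-Q7* in 49, *Psmb9* in 32 and *Tap1* in 22. Of 12 interferon response genes *Ifi27l2a* had 356 UMIs and *Isg15* had 49, all of the latter in control replicate 1. The summed level of the list was 3001 CPM in control replicate 1, 515 in control replicate 2, 472 in injury replicate 1 and, from 1 cell, 3951 in injury replicate 2, so it differed within each condition. Immediate early genes, the first to be induced by a stimulus, summed to 7032, 5779, 4014 and 11166 CPM. The genes with the highest mean CPM in T cells included *Tmsb4x*, *Malat1*, *mt-Atp6*, *Actb*, *Rpl13a*, *Rpl13*, *Rpl41*, *Rps14* and *Rps19*.

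To ask which genes set T cells apart from the other lymphocytes of the same suspension, UMIs were summed per library and cell set. T cells and B cells (26, 6, 11 and 7 cells) were compared by the quasi-likelihood method of edgeR, blocked by library. The genes used to choose the sets were left out. T cells, B cells and macrophages shared 1 fit, so the filter on low counts and the dispersion also drew on macrophages. A gene could thus pass the filter through macrophages alone. A call needed a log2 fold change of at least 2 in size and an adjusted p (Benjamini-Hochberg) under 0.05. Of 804 genes tested 27 were higher in T cells (3.36%) and 33 were lower (4.1%). The higher genes of largest log2 fold change were *Ccl5*, *Nkg7*, *Trbc2*, *Lat*, *Fyb*, *Ms4a4b*, *Thy1*, *Lck*, *Ms4a6b* and *Ccl4*. The first 5 had no UMI in B cells, so only bounds can be given from the pooled cells with a floor of 3 UMIs over the group: *Ccl5* was at least 261-fold higher, *Trbc2* at least 96.1-fold, *Nkg7* at least 76.4-fold, *Lat* at least 27.4-fold and *Fyb* at least 23.2-fold. Control replicate 1 held 963 of the 1103 *Ccl5* UMIs and 362 of the 406 *Trbc2* UMIs, so the bounds of these genes rest mainly on it. *Ms4a4b*, a membrane protein of T cells, had 1868 and 1316 CPM in control T cells, 1794 and 2577 in injury T cells and 1 UMI in all B cells (log2 fold change 8.13, SE 0.59, adjusted p = 1.55e-05). All 4 T cell values thus lay far above the B cells. *Ccl4* had 0 UMIs in the T cell of injury replicate 2 and 3 UMIs in all B cells, a pooled ratio of 29.3 with a counting interval of 9.81 to 144. Of 8 macrophage markers 5 were tested and 0 were called. All 5 had a log2 fold change above 0, with a median of 3.74 beside 0.04 over all genes tested. Without the barcodes holding other cells' transcripts 3 of the 5 lay above 0.

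The genes that were lower in T cells were led by *Ly6d*, *Vpreb3*, *Igkc*, *Fcrla*, *Ier3*, *Ebf1*, *Tifa*, *Cd72*, *Sox4* and *Marcks*. *Vpreb3*, a surrogate light chain protein of B cell precursors, was at least 123-fold lower, *Ly6d*, a surface protein of the B lineage, at least 139-fold and *Fcrla* at least 32.9-fold. *Ier3*, with 9 UMIs in B cells and none in those of injury replicate 1, was at least 4.23-fold lower. *Ebf1*, the B lineage transcription factor, had 3 UMIs in T cells and 391 in B cells, a pooled ratio of 184 with a counting interval of 62.4 to 894. Of the 22 signalling genes 4 passed the filter on low counts and 3 were called higher (*Thy1*, *Lck* and *Lat*), beside 3.36% of all genes tested. The median log2 fold change of the 4 was 6.30 beside 0.04 over all genes tested. The fourth, *Cd2*, had a log2 fold change of 1.48 (SE 0.73, adjusted p = 0.287). Of the naive and recirculating list 2 of 11 genes passed the filter, and *Igfbp4* was called lower. With no filter 10 genes of this list were tested, of which 2 were called higher and 1 lower. *Klf2* had a log2 fold change of -1.64 (SE 0.42, adjusted p = 0.0261), short of the fold required, which it passed without control replicate 2 (-2.07, adjusted p = 0.0123). *Rgs1* (3.31, SE 0.56, adjusted p = 0.00217) and *Id2* (3.75, SE 0.42, adjusted p = 0.000171) were higher in T cells. Of the 12 cell cycle genes 5 passed the filter, 0 were called, and their median log2 fold change was -0.39 beside 0.04 over all genes tested. Without control replicate 2 the median of the 4 that passed was 0.19, so its direction changed with the libraries and genes used. Genes that passed only through the set in which they are high had to differ, so these counts describe the sets and no more. Without control replicate 1 the calls fell to 16 higher and 16 lower, and *Fcrla*, *Cd72*, *Marcks*, *Igfbp4* and *Rgs1* were no longer called. *Ccl5*, *Ier3* and *Cd2* did not pass the filter there. Without injury replicate 2, *Ier3* and *Marcks* were not called. Without the 5 barcodes holding other cells' transcripts, 934 genes passed the filter and the calls rose to 36 higher and 67 lower, of which 24 and 32 were among those above.

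Against macrophages (255, 90, 492 and 217 cells) the same test called 38 of 804 genes higher in T cells (4.73%) and 121 lower (15%). The higher genes were led by *Nkg7*, *Trbc2*, *Lat*, *Ptprcap*, *Lck*, *Ltb*, *Ms4a4b*, *Cd2*, *Sept1* and *Gimap4*. *Trbc2* was at least 2957-fold higher in the pooled cells, a bound that rests mainly on control replicate 1, with 362 of its 406 UMIs. *Ptprcap*, which binds the phosphatase CD45, had 3 UMIs in all macrophages and 806, 458, 614 and 1031 CPM in the T cells of the libraries in order (log2 fold change 9.18, SE 0.54, adjusted p = 7.66e-07). *Ltb* had a log2 fold change of 8.58 (SE 0.54, adjusted p = 8.19e-07). *Ccl5* was higher than in macrophages too (3.79, SE 1.10, adjusted p = 0.0294), but not called without injury replicate 2 (adjusted p = 0.0522), and it did not pass the filter without control replicate 1. The lower genes were led by *Ccl2*, *Ccl7*, *Fcrls*, *Ms4a7*, *Dab2*, *Ier3*, *Pf4*, *Ccl12*, *Mgl2* and *Emr1*. None of the first 6 had a UMI in T cells, and *Ccl2*, which recruits monocytes, was at least 104-fold lower and *Fcrls*, a gene of tissue macrophages, at least 141-fold lower. All 4 signalling genes that passed the filter were higher. In all macrophages *Thy1* had 29 UMIs, *Lck* 3, *Lat* 2 and *Cd2* 3. As with B cells, genes this scarce in the other set had to differ, so the count describes the sets and no more. *H2-Q7*, an MHC class I gene that shares reads with near-identical family members, was higher (3.09, SE 0.57, adjusted p = 0.00134), whereas *B2m* had a log2 fold change of -0.39 (SE 0.29, adjusted p = 0.348). Of the 12 immediate early genes 10 passed the filter and 4 were lower in T cells (*Fos*, *Jun*, *Hspa1a* and *Egr1*), with a list median of -1.36 beside 0.07 over all genes tested. Without control replicate 1 it was 2 of 8 with a median of -0.73, and without the barcodes holding other cells' transcripts 6 of 10 with a median of -2.51. *Junb*, the most abundant of them in T cells, had a log2 fold change of -0.32 (SE 0.40, adjusted p = 0.586). Without control replicate 1 the calls fell to 19 higher and 93 lower, and *Ccl7* and *Hspa1a* were no longer called. *Cd2*, *Gimap4*, *Sept1*, *Ier3* and *Egr1* did not pass the filter in that fit.

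Of the 12 cell cycle genes 5 passed the filter against macrophages and 4 were higher in T cells (*Top2a*, *Rrm2*, *2810417H13Rik* and *Birc5*). The list median was 3.09 beside 0.07 over all genes tested, of which 4.73% were higher. *Top2a*, the topoisomerase of dividing cells, had a log2 fold change of 3.09 (SE 0.64, adjusted p = 0.00300). This count rested on few cells, since the T cells of control replicate 2 had no UMI of these 4 genes and those of each injury library owed them to 1 cell. It fell to 3 of 6 without injury replicate 1, to 2 of 4 without injury replicate 2, to 2 of 6 with no *Cd79a* or C1q UMI, to 1 of 5 without control replicate 1 and to 0 of 5 without the library block.

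Between conditions, the T cell UMIs of the 4 libraries (183594, 17476, 21177 and 5821) left 283 genes that passed the filter. None was higher after injury (0%) and 1 was lower (0.353%), with 8 genes at an unadjusted p under 0.05. DESeq2 called the same numbers, 0 and 1, with 4 genes at an unadjusted p under 0.05. The called gene was *Lyz2* (chr10:117277331-117282321), the lysozyme of macrophages and neutrophils. It had 413 UMIs in control replicate 1, 17 in control replicate 2 and 0 in both injury libraries, and was at least 19.2-fold lower after injury in the pooled cells (edgeR adjusted p = 5.61e-05). Of its 430 UMIs, 408 were in barcodes with other cells' transcripts: 320 and 71 in those with neutrophil genes, and 15 and 2 in those with MHC class II genes. Without these barcodes *Lyz2*, with 22 UMIs left, did not pass the filter and was not tested, injury replicate 2 had no T cell, and of 454 genes none was called, with 6 at an unadjusted p under 0.05 and a smallest adjusted p of 0.999. The call on *Lyz2* was also lost without control replicate 1, control replicate 2 or injury replicate 1 (edgeR adjusted p = 0.726, 0.910 and 0.226). With a library left out its fitted log2 fold change lay between -10.33 and -6.93 beside -9.57 with all 4, a value that depends on the prior count because both injury libraries were at 0. Next by p in the same test were *Cst3*, a protease inhibitor that macrophages express strongly, and the cell cycle gene *2810417H13Rik*, both at an adjusted p of 0.175. *2810417H13Rik* was at 387 and 0 CPM in control and 803 and 1890 after injury, where 1 cell in each library carried it.

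The T cell genes themselves gave no call between conditions. *Trbc2* had a log2 fold change of -0.34 (SE 0.81), *Lat* 0.11 (SE 0.87), *Thy1* 0.37 (SE 0.75), *Cxcr6* -0.22 (SE 0.76), *Ccl5* -0.27 (SE 0.82), *Ltb* -0.96 (SE 0.76) and *Nkg7* 1.43 (SE 0.90), all at an edgeR adjusted p of 0.994. On simulated data for this comparison, with 200 of 283 genes changed and the same fixed dispersion for all genes, 88.5% of 8-fold changes were recovered with 0 false calls. Neither setting was taken from the data, so this does not show that an 8-fold change would be found here. In the data *Cst3*, at a log2 fold change of -3.50 (SE 1.08), was not called (edgeR adjusted p = 0.175). With SEs of this size changes of 8-fold and smaller can be missed, and the sign of *Trbc2*, *Lat*, *Thy1*, *Cxcr6* and *Ccl5* turned in at least 1 alternative. The comparison holds 59 control and 7 injury T cells, and 55 of the former are from 1 library, so that effects of injury on T cells and of that library cannot be told apart. Without control replicate 1 the test set 4 cells against 7 and called 3 genes, which were named after their values were seen. *Dcn*, a fibroblast gene, was higher (117 UMIs in the cell of injury replicate 2), and the MHC class II genes *Cd74* and *H2-Eb1* were lower (237 and 71 UMIs in control replicate 2, none in the injury libraries). Without injury replicate 2, *Lyz2* and *Cd74* were lower. All of these are genes of the barcodes with other cells' transcripts, and none is a T cell gene of the lists.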

How the data were processed

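The authors aligned reads to mm10 with Cell Ranger and used Partek (names from the submitters' processing notes), and deposited raw UMI counts per gene and barcode for 4 libraries. The cell limits are those in the study's methods, applied to UMIs, and leave fewer barcodes than the cells the study states. The reason was not tested. The members, gene lists and tests were chosen with earlier results of these data known. The named genes were the 10 called genes of largest fold in each direction (average log2 CPM of at least 6) for T cells against B cells and macrophages, the 10 called genes of smallest p in each direction between conditions, up to 8 genes of highest level per list, fixed lineage genes and the 10 genes of highest mean level. Summed counts were tested with edgeR 4.0.16 (R 4.3.3) after filterByExpr with TMM scaling, with no block in the comparison of conditions. DESeq2 1.42.0, other scaling, other gates, no filter and leaving out each library were alternatives. The tests were tried on simulated data. Shares carry exact binomial intervals. Thinned shares are the expected share of cells with a UMI when 1000 UMIs are drawn from each cell without replacement. Doublets were called with Scrublet (scanpy 1.11.5) and not removed. Gene positions came from GENCODE for GRCm38. P-values rest on the spread between the sums of these libraries, which the series calls biological replicates. Between conditions that spread also holds the sampling of few T cells and the barcodes of mixed transcripts, so it is not that of animals alone. Some genes of the lists and of the named genes are not reported here.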

Additional observations from a re-analysis of the deposited data

How the results depend on the processing

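Over the alternatives tried, 104 of 129 main values stayed within the limits set and 25 moved beyond them. Of 744 values of single genes and secondary shares, 685 kept their direction and call or their level, 42 fell short of the threshold, 1 newly passed it, 3 moved and 13 reversed. The 13 were differences of T cell genes between conditions that were not called in any alternative. With no filter the log2 fold change was -0.44 for *Lat* and -0.25 for *Thy1*. With *Cd79a* and C1q at 0 it was 0.093 for *Cxcr6* and 0.63 for *Ccl5*, and without the barcodes holding other-cell transcripts 0.22 and 0.27. With a library left out it lay between -1.12 and 0.63 for *Trbc2*, -0.39 and 0.21 for *Lat*, -0.14 and 0.82 for *Thy1*, -2.04 and 0.13 for *Cxcr6* and -10.82 and 1.12 for *Ccl5*. List medians, counted apart, also reversed: that of the cell cycle genes against B cells went from -0.39 to 0.19 without control replicate 2, and that of the naive and recirculating list against macrophages from -4.23 (2 genes tested) to 4.29 (10 genes) with no filter, as more genes were tested. That of MHC class I genes against macrophages went from 0.20 to -0.29 with no filter. That of immediate early genes against B cells went from 0.14 to -0.19 with at least 3 CD3 UMIs, -0.25 with *Cd79a* and C1q at 0, -0.71 without the barcodes holding other-cell transcripts, -0.55 without control replicate 2 and -0.24 without injury replicate 2. The T cell count was 79, 60 and 52 with at least 1, at least 3 CD3 UMIs and with no *Cd79a* or C1q UMI, and 11 to 65 with a library left out. Without 1 library the injury minus control difference lay between -4.05 and -0.126 points, and the share of T cells from control replicate 1 between 84.6% and 91.7%. The share with *Cd4* lay between 0% and 20%, with CD8 between 10% and 36.4%, with a gamma chain between 0% and 5%, with *Mki67* between 7.69% and 10%, with *Ifng* between 33.8% and 45.5% and with *Cxcr6* between 54.8% and 81.8%, with the low end for *Cd4* and the gamma chain and the high end for CD8, *Ifng* and *Cxcr6* being without control replicate 1. Thinned to 1000 UMIs the shares were 9.39% for *Cd4*, 2.67% for *Mki67*, 17.3% for *Ifng* and 37.8% for *Cxcr6*.

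*Lyz2* did not pass the filter with at least 3 CD3 UMIs or without the barcodes holding other-cell transcripts. Between conditions the number lower was 0 with no filter, with at least 3 CD3 UMIs, with *Cd79a* and C1q at 0 and, chosen after seeing the data, without the barcodes holding other-cell transcripts, and 0 to 2 with a library left out (0 to 1 higher). It stayed at 1 with the DESeq2 test and with DESeq2 size factors. For *Lyz2* the adjusted p was 0.101, 0.475, 0.726, 0.910 and 0.226 with no filter, with *Cd79a* and C1q at 0 and without control replicate 1, control replicate 2 and injury replicate 1. With no filter T cells against B cells gave 123 higher and 96 lower, and against macrophages 258 and 895. Without the barcodes holding other-cell transcripts 67 genes were lower than in B cells. With a library left out the counts against B cells were 16 to 27 higher and 16 to 46 lower, both lowest without control replicate 1, and against macrophages 19 to 41 higher and 93 to 156 lower. Without the library block 25 genes were higher than in macrophages. Of the genes named there, 16 values against B cells and 21 against macrophages fell short of the threshold in an alternative, *Birc5* in 7, and *Ccl5* against macrophages and *Ier3* against B cells in 4 each.

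Whether the replicate numbers pair the libraries could not be settled. The correlation of deviations was -0.056 over 285 genes, but most libraries held few T cells, so it cannot exclude pairing. The fit with a replicate block again gave 0 higher and 1 lower. The planned fit on libraries with at least 10 T cells gave no value, as only control replicate 1 qualified. Depth limits all of this: 3 UMIs were worth 111 CPM in the pooled injury T cells and 14.9 in the control T cells.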
